A study of Mus musculus with 24 samples.

Results

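The collagen genes were the 44 of 47937 gene entries of the count table whose mouse symbol is Col, a number, the letter a and a number, such as Col1a1. They comprised 11 fibrillar collagens, 9 fibril-associated (FACIT) collagens, 6 chains of collagen IV, 6 chains of collagen VI, 4 transmembrane collagens, 3 short-chain network collagens, 2 multiplexins, the anchoring fibril collagen Col7a1, and Col26a1 and Col28a1, which belong to none of these classes. Of the 44 genes, 28 passed the filter on low counts and were tested, among them all 11 fibrillar genes, and 16 did not. Collagens are secreted triple helices of alpha chains. Fibroblasts are their main makers, and collagens I, III and V form the fibrils that carry tension, collagen VI forms beaded filaments around cells, and collagen IV forms the sheet of basement membranes. Collagens II, IX and XI are best known from cartilage.

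RNA was measured by sequencing in mouse embryonic fibroblast (MEF) lines that lost enzymes for methylation of histone H3 at lysine 9, a mark of silent chromatin, in 24 libraries from 8 conditions with 3 libraries each. WT is a clone with a conditional (floxed) Eset1 gene (also named Setdb1) and a tamoxifen-inducible Cre, kept without 4-hydroxytamoxifen (4-OHT), and E1 is the same clone after 4-OHT, which removes Eset1. In 1 series, E1 S1S2 came from a clone that also lacks Suv39h1 and Suv39h2, and 6KO1 from a clone of that clone that further lacks Eset2 (Setdb2), G9a (Ehmt2) and Glp (Ehmt1). In the other series, E2 is an Eset2-mutant clone without 4-OHT, E1E2 is that clone after 4-OHT, E1E2 G9Gl came from its daughter clone lacking G9a and Glp, and 6KO2 from a granddaughter clone that also lacks Suv39h1 and Suv39h2. E1 S1S2, 6KO1, E1E2 G9Gl and 6KO2 were all treated with 4-OHT, and the conditional Eset1 allele is common to all 8 conditions. Each mutant line is 1 clone, so the effect of a mutation and of the clone that carries it cannot be told apart, and the 3 libraries of a line measure the spread within that clone.

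Library totals ran from 24737307 to 37419816 counts, of which 19541909 to 31489070 fell on genes, so counts of the abundant collagens were limited by the spread between libraries and those of the rare ones by counting. The second WT library stood apart with the lowest scaling factor (0.906, against up to 1.10 in the others), and the calls lost and the counts that moved by over 1.5 times against WT without it are named below. The CRISPR mutations are frameshifts, so the targeted transcripts need not fall. Setdb1 RNA, whose floxed exons are only part of the transcript, changed against WT by log2 -0.58 to -0.57 in the treated lines of the first series, by -1.19 in E1E2 G9Gl and by -0.95 in 6KO2. It was at -0.31 both in E2, without 4-OHT, and in E1E2, with it, so in that clone the RNA level does not show the deletion. No line had 4-OHT without the conditional allele, so in E1 against WT and E1E2 against E2 the deletion and the treatment itself cannot be told apart. The treatment is likewise part of each difference from the untreated WT in E1 S1S2, 6KO1, E1E2, E1E2 G9Gl and 6KO2. All 8 fibroblast marker genes averaged over 10 normalized counts in WT, and summed marker counts were 83364 to 94490. In 6KO1 the sum was 59305 to 63783, below every WT library, with Pdgfra, Postn and Thy1 at 3.12, 23.8 and 0.293 normalized counts, against 129, 873 and 199 in WT. Thy1 was also near 0 in E1 S1S2 (0.861) and 6KO2 (1.76). The sum in E2, 70833 to 75494, was likewise below every WT library, with Pdgfra, Postn and Thy1 lower by log2 -1.27, -3.76 and -2.87. Postn and Thy1 were lower in E1E2 too (log2 -2.62 and -2.01). In E1E2 G9Gl the sum was 100490 to 103823, above every WT library. There Thy1 stood at 412 and S100a4 at 9533 beside 2752 in WT, but Pdgfra and Postn were lower than in WT (log2 -3.23 and -1.23). The sum of 4 smooth muscle markers was 13992 to 18665 in WT and lower in each mutant, down to 1218 to 1322 in E1 S1S2. This sum rests on few genes, since 2 of the 4 averaged over 10 counts in WT. Their median log2 fold change was 0.12 in E1E2 and 0.64 in 6KO2, and negative in the other mutants, down to -2.27 in 6KO1. The part of these markers in the collagen results was not tested.

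Collagen genes took 0.958% ± 0.170 (SD, n = 3) of gene counts in WT. The share was 1.53% ± 0.0578 in E1E2 G9Gl, with all libraries above the WT range of 0.763 to 1.07%, and 0.606 to 0.671% in the E1 S1S2 libraries, all below it. Summed normalized counts of the 44 genes, counts scaled to a common library size, were 1.55 times the WT mean in E1E2 G9Gl and 0.637 times in E1 S1S2. For 6KO1 and E1E2 the sums were 0.698 and 0.775 times WT with no overlap with the WT libraries, while E1, E2 and 6KO2 (0.833, 0.910 and 0.881 times) overlapped them. In bulk RNA, fewer collagen-making cells and less collagen RNA per cell cannot be told apart.

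**Figure D1:**
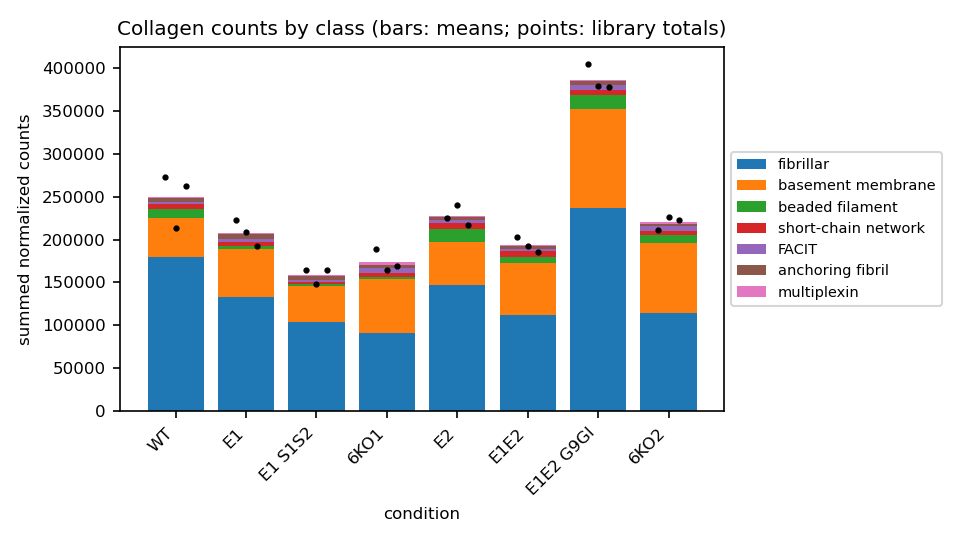
Summed normalized counts of the collagen genes in each condition, with stacked bars for the mean of 3 libraries by class and points for the total of each library. E1E2 G9Gl stands above all other conditions at 1.55 times the WT mean, and the fibrillar part is smallest in 6KO1.

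The classes did not move together. Fibrillar counts in 6KO1 summed to 0.503 times WT and in 6KO2 to 0.639 times, with no overlap with WT in either line. Collagen IV counts were 1.37 and 1.77 times WT and FACIT counts 1.85 and 1.98 times, again without overlap. Taken alone, none of these shifts was particular to the 6KO lines. Fibrillar sums were also below all WT libraries in E1 (0.742 times), E1 S1S2 (0.576) and E1E2 (0.624). In E1E2 G9Gl they were above (1.32). Collagen IV sums were above all WT libraries in E1E2 (1.31 times) and E1E2 G9Gl (2.4997). For FACIT the same held in E1E2 G9Gl (1.83). The other sums of these classes overlapped WT. In the 6KO lines the fibrillar sums rest on the most abundant genes. The median log2 fold change of the 11 fibrillar genes was 0.37 in 6KO1 and 0.34 in 6KO2. Of these genes, 3 were called higher and 2 lower in 6KO1, and 4 higher and 1 lower in 6KO2. The collagen IV sums rest on Col4a1 and Col4a2, which were called in neither 6KO line. Of the 4 tested collagen IV genes, only the rare Col4a6 was called there. Of the 5 tested FACIT genes, 4 were called higher in 6KO1 and only the abundant Col12a1 in 6KO2. Over all genes, 20.6% and 15.3% were called higher in these lines. Endothelial markers summed to 121 to 140 normalized counts in 6KO1 and 100 to 138 in 6KO2 beside 11.9 to 14.9 in WT, and epithelial markers to 656 to 693 and 589 to 621 beside 33.0 to 50.2. The epithelial sums rest on few genes, since 2 of the 6 averaged over 10 counts in each 6KO line. Of the 3 tested, 2 were called higher and 1 lower in each, beside 10.2% and 5.39% of all genes called lower. Epithelial sums were raised in E1 (132 to 167), E1 S1S2 (258 to 318) and E2 (219 to 284), where collagen IV counts overlapped WT. They were likewise raised in E1E2 (127 to 184) and E1E2 G9Gl (308 to 326), where collagen IV counts lay above all WT libraries. The part of these markers in the collagen IV counts was not tested. Collagen VI counts were 0.405 times WT in E1, 0.171 times in E1 S1S2 and 0.266 times in 6KO1, but 1.499 times in E2 and 1.62 times in E1E2 G9Gl. By counts per kilobase of exon, which allows levels of different genes to be compared, Col1a1 was the most abundant collagen gene in WT (6574), E1 S1S2 (7359) and E2 (6354). In 6KO1, E1E2, E1E2 G9Gl and 6KO2 it was Col4a1 (5197, 5194, 9222 and 6863), and in E1 it was Col5a2 (5455). In 6KO1, Col1a1 stood at 1941 per kilobase.

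Genes were called changed at a log2 fold change of at least 1 in either direction and an adjusted p of at most 0.01 in edgeR's quasi-likelihood test, with adjustment over all 18565 genes tested. Treatment with 4-OHT to remove Eset1 alone (E1 against WT) gave 0 collagen genes called higher and 3 called lower, where 2.27% and 1.99% of all genes were called. The 3 were Col3a1, Col6a1 and Col6a2, and the count was 5 without the second WT library, when Col5a3 and Col8a2 were added. Before adjustment 17 of the 28 had p under 0.05, and DESeq2 likewise called 0 higher. The share of all genes at an unadjusted p under 0.05 was not counted in any comparison, so such counts show nothing particular to collagen genes. In E1 S1S2, 3 were called higher and 7 lower (background 6.65% and 5.11%). In 6KO1, 10 were called higher and 4 lower (20.6% and 10.2%). E2 had 0 higher and 2 lower (2.90% and 3.21%, 6.11% in either direction), with 13 at an unadjusted p under 0.05, 0 higher by DESeq2, and 1 higher, Col8a2, without the third WT library.

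E1E2 had 2 called higher and 3 lower against WT (5.51% and 3.22% of all genes, 8.73% in either direction), and the higher count was 0 without the second WT library and 1 without the second or the third E1E2 library. E1E2 G9Gl had 13 higher and 1 lower (16.8% and 8.41%, 25.2% in either direction), and 6KO2 had 7 higher and 1 lower (15.3% and 5.39%), the latter count being 3 without the second WT library, when Col6a3 and Col7a1 were added. Thus 46.4% of the tested collagen genes were called higher in E1E2 G9Gl and 25% were called lower in E1 S1S2. The low-count filter also admits genes that reach its cut only where they are high, so part of the higher share was set by entry. Col28a1 and Col24a1, with 0 and 1 counts over the WT libraries, are examples. The same filter was applied to all genes. With a mean normalized count above 100 required, 6 in place of 13 were called higher in E1E2 G9Gl. Fewer than the 28 collagen genes enter that fit, and the share of all genes called in it was not counted. The median log2 fold change of the 28 genes was 0.94 in E1E2 G9Gl and 0.42 in 6KO1, beside 0.009 and 0.061 over all genes tested, and both medians are the same with Col28a1 at its lower bound. These 7 comparisons share the WT libraries, and Col5a1, Col5a2, Col5a3, Col7a1 and Col16a1 were called in none of them.

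**Figure D2:**
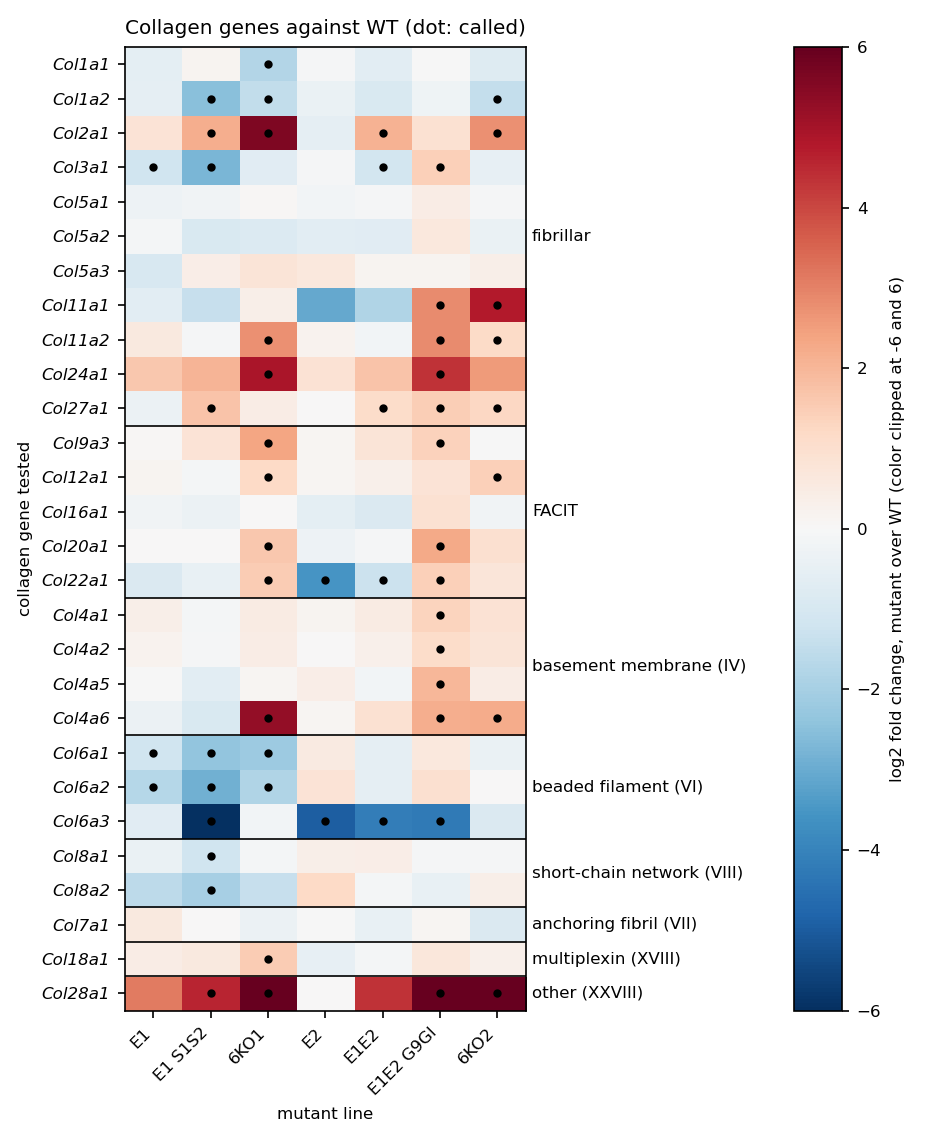
Log2 fold change against WT of the 28 collagen genes tested, by class, in the 7 mutant conditions, red for higher and blue for lower with the color clipped at -6 and 6, and a dot where the gene was called. Col6a1 and Col6a2 are blue in the series from E1 to 6KO1, all 4 tested collagen IV genes are called higher in E1E2 G9Gl, and Col6a3 is called lower in 4 lines.

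The sequence before the start of transcription differed between collagen genes, and 4 windows are shown because Col6a3, Col28a1 and Col3a1 were each called in 4 of the 7 mutants, and Col5a1 in none. The 4 windows were picked from several that meet this rule. Others, such as those of Col27a1, called in 4 mutants, and Col7a1, called in none, are not shown. Each is the 250 bases upstream of the annotated start in RefSeq sequence of GRCm38.p6, read 5′ to 3′ on the strand of the gene, with CG dinucleotides in capitals. They lie at chr1:90843972-90844221 (minus strand), chr6:8192618-8192867 (minus), chr1:45311288-45311537 (plus) and chr2:27886175-27886424 (plus), in that order, and overlap no annotated exon.
Col6a3: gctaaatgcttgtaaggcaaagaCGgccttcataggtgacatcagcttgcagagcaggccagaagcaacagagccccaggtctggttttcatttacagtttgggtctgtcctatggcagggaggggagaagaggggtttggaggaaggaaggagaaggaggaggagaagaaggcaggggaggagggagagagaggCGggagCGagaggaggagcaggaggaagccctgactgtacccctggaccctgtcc
Col28a1: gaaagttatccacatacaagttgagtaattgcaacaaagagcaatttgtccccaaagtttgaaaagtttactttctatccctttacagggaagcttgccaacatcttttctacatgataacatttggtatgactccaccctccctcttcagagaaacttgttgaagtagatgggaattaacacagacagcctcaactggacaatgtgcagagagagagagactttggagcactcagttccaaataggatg
Col3a1: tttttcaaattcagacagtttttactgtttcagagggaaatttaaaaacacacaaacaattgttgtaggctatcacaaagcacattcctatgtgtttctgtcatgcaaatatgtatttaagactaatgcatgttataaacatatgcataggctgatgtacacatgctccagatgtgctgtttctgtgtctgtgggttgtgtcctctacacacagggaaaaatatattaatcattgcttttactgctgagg
Col5a1: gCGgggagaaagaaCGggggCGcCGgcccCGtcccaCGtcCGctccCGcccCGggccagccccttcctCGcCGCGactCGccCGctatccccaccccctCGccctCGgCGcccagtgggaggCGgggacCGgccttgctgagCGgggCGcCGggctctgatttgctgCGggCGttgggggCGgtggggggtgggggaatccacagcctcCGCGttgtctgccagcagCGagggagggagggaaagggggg

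The Col6a3 window holds 3 CG dinucleotides, the Col28a1 and Col3a1 windows hold 0, and the Col5a1 window holds 28. The windows of Col27a1 and Col7a1, not shown, hold 15 and 7, so the 4 shown make the contrast look sharper. Of all 32851 windows of this length in the RefSeq table, 7.9% hold 0, 37.8% at most 3 and 7.6% at least 28. A window was at hand for 22 of the 28 tested genes, and where a gene had more than 1, the one nearest the GENCODE start was used (for Col18a1 the one with 12, not that with 3). Those of Col1a2 and Col27a1 lie 804 and 1408 bases from that start. The 12 that were called in 2 or more mutants had a median of 3 CG dinucleotides (range 0 to 15), and the 10 called in at most 1 had a median of 19 (range 7 to 31). These groups also differed in abundance, with median WT levels of 54.8 and 3848 normalized counts, and no test was made.

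Collagen III and the chains of collagen I are the main fibrillar collagens of connective tissue. Col3a1 (chromosome 1, 45311538 to 45349706, plus strand), whose product forms homotrimers in extensible tissues, had 18515, 16422 and 19293 normalized counts in the WT libraries. It had 8351, 7818 and 7474 in E1, 2921, 2541 and 2770 in E1 S1S2, and 11421, 11126 and 10920 in 6KO1. The E1 and E1 S1S2 libraries lay below every WT library, and the E1 S1S2 libraries were the lowest of all 24. The log2 fold change against WT was -1.20 ± 0.07 (SE) in E1 (adjusted p = 4.03e-12) and -2.72 ± 0.07 in E1 S1S2 (1.56e-18), and from E1 S1S2 to 6KO1 Col3a1 rose by 2.02 ± 0.07 (5.57e-17).

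In the second series Col3a1 had 16050, 18614 and 16695 counts in E2 and 8997, 8577 and 7900 in E1E2. The E1E2 G9Gl libraries, at 48326, 49210 and 48322, were the highest of all conditions, and 6KO2 returned to 12888, 12793 and 13460. Col3a1 was lower with 4-OHT in this clone too (log2 -1.01 ± 0.07 for E1E2 against E2, adjusted p = 3.16e-10), a call lost on the fold threshold without the second E2 or the third E1E2 library. Col3a1 then rose by 2.52 ± 0.07 from E1E2 to E1E2 G9Gl (9.81e-19) and fell by 1.90 ± 0.07 from there to 6KO2 (3.54e-16). A 141-base miRNA gene annotation, Gm47302, lies within Col3a1 exons on the same strand with at most 1043 counts, so a small part of the reads could be assigned to either.

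**Figure D3:**
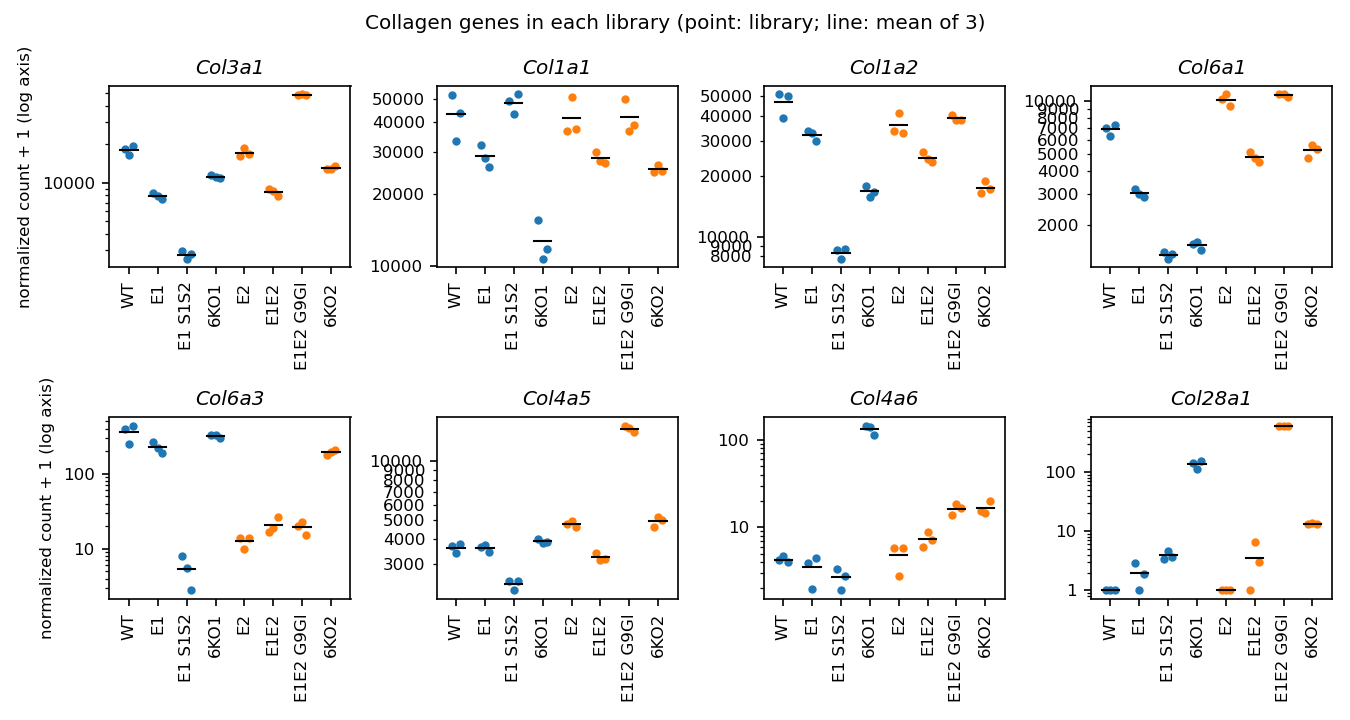
Normalized counts plus 1 on log axes for 8 collagen genes, with a point for each library and a line for the mean of 3, in blue for WT, E1, E1 S1S2 and 6KO1 and in orange for E2, E1E2, E1E2 G9Gl and 6KO2. Col3a1 peaks in E1E2 G9Gl, Col6a3 is near the bottom in E1 S1S2, E2, E1E2 and E1E2 G9Gl, and Col28a1 is at 0 in WT and E2.

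Col1a2 (chromosome 6, plus strand) encodes the alpha-2 chain of collagen I, which joins the product of Col1a1 (chromosome 11, plus strand) in a heterotrimer. Col1a2 had 51258, 39213 and 49981 normalized counts in WT and 8546, 7762 and 8709 in E1 S1S2, far below every other condition. Col1a1 had 51967, 33549 and 43921 in WT and 49022, 43502 and 52376 in E1 S1S2, so its libraries overlapped those of WT. In E1 S1S2 the log2 fold change was -2.49 ± 0.10 for Col1a2 (adjusted p = 1.67e-15) and 0.16 for Col1a1, which was not called. The ratio of Col1a1 to Col1a2 per kilobase was 1.73 ± 0.162 (SD, n = 3) in WT and 11.0 ± 0.396 in E1 S1S2.

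In 6KO1, derived from the same clone, the ratio was 1.43 ± 0.191 and overlapped that of WT. There Col1a1 was at its lowest, with 15608, 10745 and 11860 counts in the 3 libraries, and Col1a2 stood at 17984, 15790 and 16689. Both chains were called lower in 6KO1 against WT, Col1a1 by log2 -1.76 ± 0.15 (adjusted p = 6.16e-10) and Col1a2 by -1.48 ± 0.10 (2.42e-12). Between E1 S1S2 and 6KO1 they moved in opposite directions, Col1a1 by -1.92 ± 0.16 and Col1a2 by 1.01 ± 0.09, the latter a call at the edge of the fold threshold that was lost under several alternatives.

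In 6KO2 only Col1a2 passed the threshold against WT, with 16457, 19004 and 17211 counts and a log2 fold change of -1.42 ± 0.10 (adjusted p = 1.08e-11), while Col1a1, at 24724, 26616 and 24945, changed by -0.76. The ratio of the chains was 2.75 ± 0.0964 in 6KO2, above all WT libraries. Addition of the Suv39h1 and Suv39h2 mutations changed Col1a1 differently in the E1E2 G9Gl and the E1 background, with a difference of log2 -1.47 ± 0.21 (adjusted p = 4.51e-06). Col1a1 itself changed by -0.72 and by 0.75 in these steps, neither of them called.

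**Figure D4:**
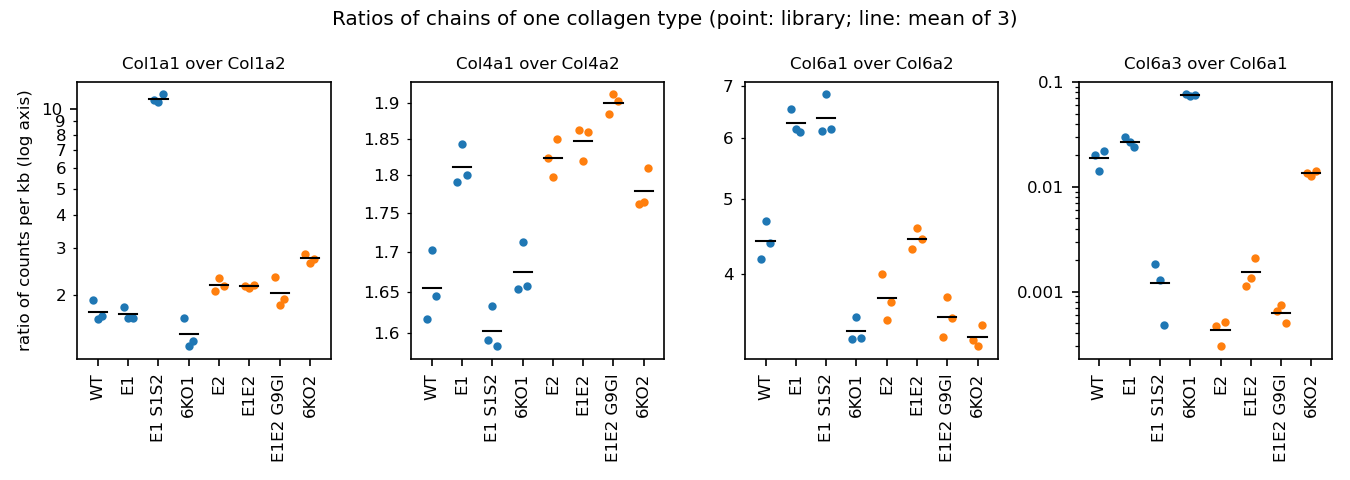
Ratios of counts per kilobase between chains of one collagen type on log axes, with a point for each library and a line for the mean of 3, in blue for the series from WT to 6KO1 and in orange for that from E2 to 6KO2. Col1a1 over Col1a2 stands out in E1 S1S2 at 11.0, Col4a1 over Col4a2 stays between 1.58 and 1.91 in all libraries, and Col6a3 over Col6a1 falls in E1 S1S2, E2, E1E2 and E1E2 G9Gl.

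The collagen V genes, whose products join collagen I fibrils and limit their diameter, were called in no mutant against WT but changed between mutants. Col5a1 stayed between 9616 and 19348 normalized counts in all 24 libraries. Col5a2, which lies tail to tail with Col3a1 across 24.6 kb of chromosome 1, rose by log2 1.31 ± 0.05 from E1E2 to E1E2 G9Gl (adjusted p = 1.55e-16), as Col3a1 did, and fell by 1.02 ± 0.05 from there to 6KO2. The pair did not stay in step, since the ratio of Col5a2 to Col3a1 per kilobase was 3.19 ± 0.167 in WT, 11.2 ± 0.457 in E1 S1S2 and 1.84 ± 0.00732 in E1E2 G9Gl. Col5a3 rose by 1.35 ± 0.18 from E1 to E1 S1S2 (2.34e-06).

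Col2a1, Col11a1, Col11a2 and Col9a3, chains of the cartilage collagens II, XI and IX, were low in WT and higher in some mutants. The other collagen IX chains, Col9a1 and Col9a2, had at most 1 and 2 counts in a library. Col2a1 (chromosome 15, minus strand) had 4.26, 0 and 4.01 normalized counts in WT and 139, 137 and 128 in 6KO1, with no overlap. The log2 fold change was 5.60 ± 0.32 (adjusted p = 2.75e-13), and Col2a1 was also called higher in E1 S1S2 (2.17 ± 0.48), E1E2 (2.06 ± 0.51) and 6KO2 (2.73 ± 0.46), where its counts were 9.96 to 16.2, 6.90 to 14.4 and 15.5 to 24. The call in E1E2 was lost without the second WT library and without the second or the third E1E2 library. In E1E2 G9Gl the libraries held 3.89 to 6.47 counts and the gene was not called.

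Col11a1 (chromosome 3, plus strand) behaved otherwise. It had 2.13, 5.48 and 4.01 normalized counts in WT and 25.9, 32.4 and 28.5 in E1E2 G9Gl. The highest levels were those of 6KO2, at 107, 137 and 82.8. In 6KO1 it had 4.40, 3.48 and 7.82 counts, which overlapped WT. The log2 fold change was 4.74 ± 0.31 in 6KO2 (adjusted p = 9.03e-12) and 2.83 ± 0.40 in E1E2 G9Gl (1.15e-06), and 6KO2 exceeded 6KO1 by 4.37 ± 0.29 (1.43e-11). Col2a1 was raised in both lines that lack all 6 enzymes, but less in 6KO2, with a log2 fold change of -2.88 ± 0.23 for Col2a1 in 6KO2 against 6KO1 (2.99e-10).

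Col11a2 (chromosome 17, plus strand), the partner chain of Col11a1, had 54.3, 27.4 and 41.1 normalized counts in WT, 328, 245 and 246 in 6KO1 and 292, 294 and 288 in E1E2 G9Gl. The 6KO2 libraries held 102, 89.2 and 80.6. All 3 lines lay above WT, with log2 fold changes of 2.75 ± 0.19 (adjusted p = 6.35e-12), 2.84 ± 0.19 (4.39e-12) and 1.16 ± 0.21 (3.81e-05), the last not called without the second WT library. Col9a3 (chromosome 2, plus strand), a chain of collagen IX on cartilage fibrils, had 37.3, 37.4 and 36.1 counts in WT, 226, 174 and 178 in 6KO1, and 37.2, 35.4 and 36.5 in 6KO2. Its log2 fold change was 2.38 ± 0.15 in 6KO1 (1.65e-12) and 1.36 ± 0.16 in E1E2 G9Gl (1e-07). It shares 234 exonic bases with Tcfl5 on the other strand, which had at most 9 counts in a library. The summed counts of the 6 chondrocyte markers were 118 to 159 in WT, 42.1 to 63.3 in 6KO1, 28.5 to 38.2 in E1E2 G9Gl and 137 to 167 in 6KO2. Acan and Hapln1 were at 0 in every WT library and averaged at most 2.47 counts in each of the 8 conditions, and Sox9 averaged 23.8 in 6KO1 and 11.8 in E1E2 G9Gl beside 102 in WT.

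Col24a1 (chromosome 3, plus strand) and Col27a1, vertebrate fibrillar collagens of developing bone and cartilage, also rose in some lines. Col24a1 had 1 count over the WT libraries and 45 over those of 6KO1, a ratio of 41.2 with an exact 95% counting interval of 7.03 to 1663, and 23 in E1E2 G9Gl, a ratio of 27.2 (4.41 to 1120). It was called higher in both, with adjusted p = 3.65e-07 and 1.59e-05. Col27a1 was called higher in 4 mutants, by log2 1.69 in E1 S1S2, 1.49 in E1E2 G9Gl, 1.25 in 6KO2 and 1.11 in E1E2. The Col27a1 calls in E1E2 and 6KO2 were lost without the second WT library, and the one in E1E2 also without the first E1E2 library.

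Collagen VI is assembled from the products of Col6a1, Col6a2 and Col6a3. Col6a1 and Col6a2 lie 85.2 kb apart on the minus strand of chromosome 10, and Col6a3 on chromosome 1 (90765923 to 90843971, minus strand). Col6a3 had 390, 248 and 436 normalized counts in WT and 261, 219 and 189 in E1, and then 7.05, 4.53 and 1.8 in E1 S1S2. In 6KO1, whose clone descends from that of E1 S1S2, it was back at 328, 327 and 299, within the WT range.

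The E2 clone also had little Col6a3, with 13.1, 8.97 and 13.1 normalized counts although Eset1 had not been removed there. The counts stayed at 15.8, 17.7 and 25.8 in E1E2 and at 19.4, 22.0 and 14.2 in E1E2 G9Gl, and reached 178, 195 and 209 in 6KO2, again from a descendant clone. The 12 libraries of E1 S1S2, E2, E1E2 and E1E2 G9Gl thus all lay below the 12 of WT, E1, 6KO1 and 6KO2. Log2 fold changes against WT were -6.25 ± 0.28 in E1 S1S2 (adjusted p = 1.47e-14), -4.95 ± 0.25 in E2 (4.11e-13), -4.17 ± 0.23 in E1E2 (1.06e-12) and -4.25 ± 0.24 in E1E2 G9Gl (1.61e-13).

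The steps to the lines without all 6 enzymes raised Col6a3 by log2 6.08 ± 0.28 from E1 S1S2 to 6KO1 (adjusted p = 9.91e-15) and by 3.37 ± 0.25 from E1E2 G9Gl to 6KO2 (7.29e-11). Addition of the Suv39h mutations lowered Col6a3 by 5.57 ± 0.29 in the E1 background and raised it in the E1E2 G9Gl background, a difference of 8.93 ± 0.38 (1.08e-14). Each step is 1 clone, so the mutations and the choice of clone cannot be told apart.

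Col6a1 and Col6a2 did not follow Col6a3. Col6a1 had 7053, 6362 and 7309 normalized counts in WT, 3183, 2975 and 2880 in E1, 1399, 1284 and 1360 in E1 S1S2, and 1557, 1605 and 1448 in 6KO1. Col6a2 had 3205, 2582 and 3166 in WT, 923, 918 and 895 in E1, 434, 357 and 419 in E1 S1S2, and 898, 867 and 832 in 6KO1. In all 3 mutants both genes were below WT without overlap, with log2 fold changes of -1.20 ± 0.07, -2.36 ± 0.07 and -2.17 ± 0.07 for Col6a1 and of -1.71 ± 0.10, -2.88 ± 0.10 and -1.78 ± 0.10 for Col6a2.

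In E2, where Col6a3 was nearly absent, Col6a1 stood at 10271, 10863 and 9326 counts and Col6a2 at 4880, 5914 and 4818, both above every WT library though not called. Both were lower with 4-OHT in this clone as well, Col6a1 by log2 -1.08 ± 0.07 (E1E2 against E2, adjusted p = 2.53e-10) and Col6a2 by -1.34 ± 0.09 (5.68e-10), beside a background of 0.657% of genes called lower, 2.32% called higher and 2.97% called in either direction in this comparison. In all, 2 collagen genes were called higher there (Col2a1 and Col27a1, with 0 left without the second E2 library) and 3 lower. The effect of 4-OHT on Col6a1 and Col6a2 differed between the 2 clones by 0.12 and 0.37, neither of them called.

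The ratio of Col6a3 to Col6a1 per kilobase was 0.0188 ± 0.00397 (SD, n = 3) in WT, 0.0758 ± 0.00124 in 6KO1, 0.00121 ± 0.000684 in E1 S1S2 and 0.000427 ± 0.000111 in E2. Col6a1 over Col6a2 stayed between 3.23 and 6.84 in all libraries. Col6a4, Col6a5 and Col6a6, the alternative chains to Col6a3, did not pass the filter, with at most 3, 3 and 1 counts in a library.

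Collagen IV genes are arranged in head-to-head pairs, and 3 pairs are present in mouse. Col4a1 (minus strand) and Col4a2 (plus strand) overlap by 22 exonic bases on chromosome 8. Col4a1 had 31318, 22229 and 29582 normalized counts in WT and 72303, 67152 and 67034 in E1E2 G9Gl, and Col4a2 had 17174, 11584 and 15952 against 34037, 31136 and 31244. All E1E2 G9Gl libraries lay above WT, with log2 fold changes of 1.31 ± 0.10 (adjusted p = 3.22e-11) and 1.11 ± 0.11 (2.81e-09), the second not called without the second WT library. Their ratio per kilobase was 1.65 ± 0.0431 in WT and 1.90 ± 0.0146 in E1E2 G9Gl.

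Col4a5 (plus strand) and Col4a6 (minus strand), 1.31 kb apart on chromosome X, parted in some lines but not in E1E2 G9Gl. Col4a5 had 3704, 3402 and 3774 normalized counts in WT, 15110, 14687 and 13998 in E1E2 G9Gl and 4008, 3831 and 3886 in 6KO1. Col4a6 had 3.2, 3.65 and 3.01 in WT, 12.9, 17.3 and 15.5 in E1E2 G9Gl and 144, 141 and 111 in 6KO1. The 6KO2 libraries held 14.5, 13.7 and 18.8. The largest rise of Col4a5 was in E1E2 G9Gl (log2 2.01 ± 0.06, adjusted p = 1.46e-18) and that of Col4a6 in 6KO1 (5.27 ± 0.24, 4.41e-15), where Col4a5 changed by 0.11.

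Col4a6 was also called higher in E1E2 G9Gl (2.16 ± 0.36) and 6KO2 (2.20 ± 0.35), and 6KO2 against 6KO1 gave -3.07 ± 0.18 on the log2 scale (adjusted p = 2e-12). Col4a5 over Col4a6 per kilobase was 1323 ± 196 in WT and 35.5 ± 5.07 in 6KO1. It was 381 ± 65.8 in 6KO2 and 1153 ± 204 in E1E2 G9Gl, where it overlapped WT. The other pair, Col4a3 and Col4a4, did not pass the filter, with at most 7 and 6 counts in a library.

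Col28a1 (chromosome 6, 7997808 to 8192617, minus strand) encodes a collagen with von Willebrand factor A domains that is known from peripheral nerve. It had 0 counts in all WT and E2 libraries. It had 611, 600 and 593 normalized counts in E1E2 G9Gl and 143, 111 and 154 in 6KO1, while 6KO2 held 12.4, 12.6 and 12.2. Each of these libraries exceeded all libraries of WT, E1, E1 S1S2, E2 and E1E2, which held at most 5.54. Taking 3 counts over the WT libraries as the limit of detection, Col28a1 was at least 608-fold higher in E1E2 G9Gl, at least 136-fold in 6KO1 and at least 12.5-fold in 6KO2 than in WT, with adjusted p = 3.09e-15, 1.76e-12 and 6.28e-06.

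Between E1E2 G9Gl and 6KO2, that is with the added loss of Suv39h1 and Suv39h2, Col28a1 fell by 5.59 ± 0.22 on the log2 scale (adjusted p = 1.18e-13). It was also called higher in E1 S1S2, at 2.35 to 3.62 normalized counts and at least 2.89-fold over WT, but this call was lost without any 1 of the WT libraries, among others. The 5 neural and Schwann cell markers summed to 714 to 875 counts in WT and 547 to 610 in 6KO1. They summed to 1544 to 1690 in E1E2 G9Gl and 3237 to 3646 in 6KO2. The sums were 1570 to 1811 in E1, 1032 to 1126 in E1 S1S2, 1448 to 1601 in E2 and 3086 to 3330 in E1E2. Only 2 of the 5 averaged over 10 counts in each condition, and the part of these markers in the Col28a1 result was not tested.

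Among FACIT collagens, which decorate fibril surfaces, Col20a1 and Col22a1 rose in 6KO1 and E1E2 G9Gl, and Col12a1 in 6KO1 and 6KO2. Col20a1 (chromosome 2, plus strand) had 19.2, 13.7 and 27.1 normalized counts in WT, 73.0, 54.0 and 56.7 in 6KO1 and 111, 79.8 and 93.3 in E1E2 G9Gl, both above WT. The log2 fold changes were 1.62 ± 0.22 (adjusted p = 6.93e-07) and 2.25 ± 0.21 (2.73e-09), and 79 exonic bases are shared with an annotated transcript on the same strand with up to 287 counts, so its reads are uncertain. Col12a1 was called higher in 6KO1 (1.20) and 6KO2 (1.45).

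Col22a1 (chromosome 15, minus strand), known from myotendinous junctions, had 21.3, 8.22 and 13 normalized counts in WT. It fell to 1.19, 1.79 and 0 in E2 and stood at 5.91, 7.75 and 3.10 in E1E2, and was 47.5, 39.2 and 35.2 in 6KO1 and 41.0, 42.8 and 29.8 in E1E2 G9Gl. E2 and E1E2 lay below WT and the other 2 lines above it. The log2 fold change was -3.55 ± 0.56 in E2 (adjusted p = 2.45e-05), -1.31 ± 0.39 in E1E2 (0.00855), 1.54 ± 0.26 in 6KO1 (1.17e-05) and 1.44 ± 0.27 in E1E2 G9Gl (5.28e-05), and the E1E2 call was lost without the first or the third WT library, the first or the third E1E2 library, and in DESeq2.

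Of the remaining tested genes, Col18a1, a multiplexin of basement membranes, was called higher in 6KO1 (log2 1.5004). Col8a1, a network-forming collagen of vessel walls and cornea, was called lower in E1 S1S2 (-1.17), as was Col8a2 (-1.99), whose libraries overlapped those of WT and whose call was lost without the first or the third WT library and without the second or the third E1 S1S2 library. In E2 the second library stood apart from the other 2 for Col8a1 (3847, against 8186 and 7779) and Col5a3 (1646, against 3507 and 3226). The 16 genes below the filter had at most 1 to 16 counts in a library. The highest was Col23a1, a transmembrane collagen, with 16 in a 6KO1 library and 35 over the 3 libraries against 1 in WT, a ratio of 32.1 (exact 95% counting interval 5.39 to 1302). Col19a1 had 34 counts in 6KO2 against 1 in WT, a ratio of 37.5 (6.29 to 1524).

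The steps within each series showed where the calls arose. From E1 to E1 S1S2, 2 collagen genes were called higher and 5 lower, beside 4.31% and 3.75% of all genes and 8.06% in either direction. From E1 S1S2 to 6KO1, 14 were called higher and 2 lower (16.3% and 5.02% of all genes). From E1E2 to E1E2 G9Gl, 13 were called higher and 0 lower (14.8% and 6.78%), with 24 of 28 at an unadjusted p under 0.05 and 0 called lower by DESeq2. The share of all genes at that unadjusted p was not counted. From E1E2 G9Gl to 6KO2 the direction turned, with 3 called higher and 12 lower (7.19% and 9.12%).

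Among the 12 genes that fell from E1E2 G9Gl to 6KO2 were Col3a1, Col4a5 (log2 -1.56), Col1a2 (-1.15), Col16a1 (-1.14) and Col28a1. Compared directly, 6KO2 had 4 collagen genes higher than 6KO1 and 7 lower (7.10% and 9.77%). Col6a1, Col6a2, Col8a2 and Col11a1 were the higher ones, the call of Col8a2 being lost without any 1 of the 6KO1 libraries or the second 6KO2 library, and Col2a1, Col4a6, Col9a3, Col11a2, Col18a1, Col24a1 and Col28a1 the lower ones. The effect of 4-OHT differed between the Eset2-mutant clone and its parent for 3 genes, 1 of them with a negative difference, beside 3.42% of all genes and 1.41% with a negative difference. The effect of the Suv39h mutations differed between backgrounds for 8, of which 1 had a positive and 7 a negative difference, beside 16.5% of all genes (7.71% positive and 8.76% negative).

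**Figure D5:**
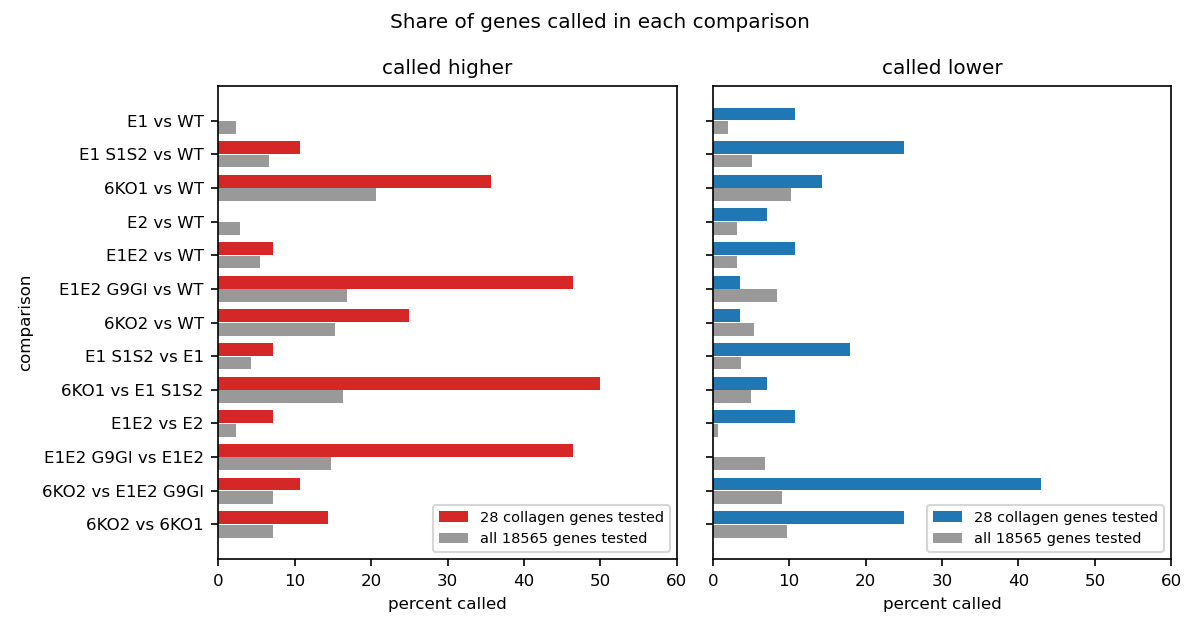
Percent of the 28 tested collagen genes and of all 18565 tested genes that were called higher (left) and lower (right) in each of 13 comparisons. The share of collagen genes called higher is 46.4% in E1E2 G9Gl against WT beside 16.8% of all genes, and the share called lower from E1E2 G9Gl to 6KO2 is 42.9% beside 9.12%.

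Other genes of collagen biology were counted in lists chosen by function, beside 20.6% of all genes called higher and 10.2% lower in 6KO1 and 15.3% and 5.39% in 6KO2. Of 21 tested genes for modification and folding of collagen chains, 1 was called higher and 3 lower in 6KO1 and likewise in 6KO2. They included Plod1, a lysyl hydroxylase (log2 1.61 in 6KO1 and 1.10 in 6KO2), P4ha1, a prolyl 4-hydroxylase subunit (-1.34 and -1.01), and P3h3, of the prolyl 3-hydroxylase family (-1.21 and -1.67). Of 12 tested secretion genes, 1 was called higher (Tango2, 1.14) and 1 lower (Sar1a, a COPII coat GTPase, -1.03) in 6KO1, and 0 higher and 1 lower (Creb3l1, a transcription factor of the secretory pathway, -1.04) in 6KO2.

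Of 12 tested genes for processing and crosslinking, 2 were called higher and 2 lower in 6KO1 and 4 higher and 0 lower in 6KO2, again beside 20.6% and 10.2% of all genes in 6KO1 and 15.3% and 5.39% in 6KO2. Loxl4, a lysyl oxidase, was higher in both lines (2.60 and 1.73), as was Tgm2, a transglutaminase (1.99 and 3.98), whereas Tll1, a procollagen C-proteinase, fell by 1.25 in 6KO1 and rose by 2.70 in 6KO2. Of 14 tested genes for degradation and uptake, 5 were called higher and 2 lower in 6KO1 and 6 higher and 1 lower in 6KO2. Fap, a fibroblast surface protease, and Mmp13, a collagenase, had 0 counts in WT and were called higher in both lines, and Mmp16, a membrane-bound metalloproteinase, changed by -6.35 and 2.05.

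Of 8 tested collagen receptors, 3 were called higher and 0 lower in each 6KO line. The shares over all genes were again 20.6% and 10.2% in 6KO1 and 15.3% and 5.39% in 6KO2. Ddr1, a collagen-binding receptor tyrosine kinase, was at 1.74 and 2.20. Itga2, an integrin subunit, was at 4.38 and 4.86, fitted values that rest on a WT mean of 0.355 normalized counts. Adgrg1, an adhesion receptor that binds collagen III, was at 2.82 in 6KO1 and 1.23 without a call in 6KO2. Of 13 tested fibril-associated proteins, 1 was higher and 5 lower in 6KO1 and 1 higher and 4 lower in 6KO2. Thbs2, a matricellular regulator of fibril assembly, fell in both (-5.92 and -6.48), as did Fbln1, a fibulin (-8.20 and -1.41), while Dcn, the fibril-binding proteoglycan decorin, fell by 5.65 in 6KO1 and rose by 1.92 in 6KO2. The median log2 fold change of the lists ranged from -0.51 to 0.66 in 6KO1 and from -0.23 to 0.95 in 6KO2, beside 0.061 and 0.041 over all genes tested.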

How the data were processed

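Total RNA of MEF lines was sequenced with a stranded paired-end kit in 24 libraries, and the authors deposited 1 table of read counts for 47937 genes and 1445 repeat families. Per the paper's methods and the labels, reads were trimmed with cutadapt 1.8.1, aligned with STAR 2.5.2b to GRCm38 and counted with TEtranscripts. The strand setting of the counting is not given in the sources used here, so overlapping genes may share reads. Symbols were found for 47224 genes. Groups came from the genotype labels. In 1 entry with no gene name lay at most 0.00271% of counts, and it was left out.

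Genes were tested in edgeR 4.0.16 (R 4.3.3) by the quasi-likelihood test over all 24 libraries, with 1 coefficient per condition, TMM factors from genes and filterByExpr, which kept 18565 genes. The SE is the absolute log2 fold change over the square root of F. DESeq2 1.42.0, other factors, other filters, single libraries left out and a replicate block were alternatives, and the procedure was tested on simulated data. Normalized counts are scaled to the mean effective library of 25325051 counts. A replicate is a library of 1 clone, and p-values measure only that spread. Intervals cover counting error only.

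The collagen genes, classes and lists were chosen with earlier results of these data known. Values per library are given for Col1a1, Col1a2 and Col3a1, and for members called against WT in 2 or more of 7 mutants, at most 14 by the largest change. In each list the 3 called members with the largest change in 6KO1 or 6KO2 are named. The other named members were chosen after their values were seen. Level comparisons between genes used counts per kilobase of exons in GENCODE vM21.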

Additional observations from a re-analysis of the deposited data

Results flagged for a closer look

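The response of 3 collagen genes to 4-OHT, which removes Eset1, differed between the Eset2-mutant clone and its parent in the interaction test of edgeR's quasi-likelihood fit. The difference, as the log2 change in the mutant clone minus that in the parent, was 3.12 ± 0.77 for Col22a1 (adjusted p = 0.00688), 1.47 ± 0.38 for Col27a1 (0.00983) and -1.003 ± 0.16 for Col7a1 (0.000106). The number with a positive difference was 3 without the second WT library and 0 or 1 without any other single library of the 4 conditions, and the negative difference was not called without the second WT, the first or second E1, the second E2 or the second E1E2 library.

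The response to the Suv39h1 and Suv39h2 mutations differed between the E1E2 G9Gl and E1 backgrounds for 8 genes. The log2 difference was 8.93 ± 0.38 for Col6a3 (adjusted p = 1.08e-14), which fell in 1 background and rose in the other. It was -7.07 ± 0.92 for Col28a1 (3.15e-06), whose E1 libraries held 3 counts in all, so that this fitted value depends on the prior count and is no bound. The other differences were -2.30 for Col27a1, -2.16 for Col9a3, -1.47 for Col1a1, -1.30 for Col20a1, -1.16 for Col5a3 and -1.004 for Col11a2. Each background is 1 clone, so a difference between clones cannot be told apart from one between genotypes.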

How the results depend on the processing

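Other normalizations (RLE factors, factors from genes and repeats together, factors without the collagen genes) and DESeq2 moved few counts of called collagen genes by over 1.5 times. Factors without the collagen genes gave 1 positive difference, in place of 2, for the 4-OHT interaction, and DESeq2 gave 2, in place of 1, for the Suv39h interaction. The summed collagen counts moved by less than 1 SD under each alternative run. With no fold change minimum the counts higher and lower were 2 and 7 in E1, 4 and 6 in E2, 4 and 10 in E1E2 and 12 and 7 in 6KO2 against WT, 4 and 10 for E1 S1S2 against E1, 10 and 11 for 6KO2 against 6KO1, 22 and 1 for E1E2 G9Gl against E1E2, and 4 and 12 for the Suv39h interaction. It also gave 5 higher in E1 S1S2, 7 lower in 6KO1, 20 higher in E1E2 G9Gl, 7 lower for E1E2 against E2 and 2 negative for the 4-OHT interaction. Restriction to a mean normalized count above 100 left 1 higher in E1 S1S2, 3 in 6KO1, 1 in E1E2, 6 in E1E2 G9Gl, 3 in 6KO2, 7 for 6KO1 against E1 S1S2, 1 for E1E2 against E2, 7 for E1E2 G9Gl against E1E2, 1 for 6KO2 against E1E2 G9Gl and 1 for the 4-OHT interaction, and 1 lower in E2, 2 higher and 2 lower for 6KO2 against 6KO1, and 4 negative for the Suv39h interaction. Fits to only the libraries compared gave 1 higher in E1 S1S2, 1 lower in E2, and 0 higher in E1E2, for E1E2 against E2 and for the 4-OHT interaction. With no filter on low counts there was 1 higher in E2, 2 lower in E1E2 G9Gl, 1 lower for E1E2 G9Gl against E1E2 and 2 positive for the Suv39h interaction. The cause was not tested, beyond that fewer genes or libraries enter the restricted fits. The share of all genes called was not counted under these alternatives.

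With single libraries left out, counts ranged from 3 to 5 lower in E1, 0 to 1 higher in E2, 0 to 2 higher in E1E2, 1 to 3 lower in 6KO2, 0 to 2 higher for E1E2 against E2, 0 to 3 positive and 0 to 1 negative for the 4-OHT interaction, and 1 to 2 positive for the Suv39h interaction. Signs turned for small, uncalled log2 fold changes against WT, which ranged from -0.22 to 0.11 for Col1a1 in E2 and -0.19 to 0.11 in E1E2 G9Gl, -0.098 to 0.51 for Col4a6 in E2, -0.080 to 0.076 for Col6a2 in 6KO2, -0.0044 to 0.14 for Col9a3 in E1, -0.017 to 0.71 for Col11a1 in 6KO1, and -1.86 to 2.74 for Col24a1 in E2. For Col11a2 they ranged from -0.32 to 0.16 in E1 S1S2, -0.031 to 0.45 in E2 and -0.40 to 0.080 in E1E2, and for Col20a1 from -0.29 to 0.29 in E1, -0.19 to 0.32 in E1 S1S2 and -0.29 to 0.23 in E1E2. Factors from genes and repeats turned Col6a2 in 6KO2 to -0.0048 and Col20a1 in E1 to -0.0098, and factors without the collagen genes turned the latter to -0.0010.

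Same-numbered libraries did not deviate together in a way that pairs them, since in none of the 13 comparisons were all 3 correlations over 0.1 (range -0.291 to 0.24). The replicate block moved no count by over 1.5 times, added Col1a1 to the calls of 6KO2 against 6KO1, and turned 1 sign, that of Col28a1 in E2 against WT, to 0.0044, where both groups hold 0 counts. Depth limits the genes under about 10 counts, such as Col24a1 and Col8a2 in WT.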
